A study of Mus musculus with 4 samples.

Results

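The 10 genes described here bring fatty acids into heart muscle cells, store them in lipid droplets and release them again, together with a noncoding RNA that faces one of them. They are Lpl, Cd36, Slc27a1, Acsl1, Fabp3, Plin4, Plin5, Pnpla2, Lipe and 4732471J01Rik, out of 25044 genes in the count files. They were chosen by name, as the rows whose RefSeq transcript maps to one of these symbols, and 24 transcript rows did. Only 4 of the 10 held counts in every library: Lpl, Fabp3, Plin4 and 4732471J01Rik. None of these 4 differed 2-fold or more between a mutant library and its control.

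RNA from whole hearts of mice aged 12 weeks was sequenced in 4 libraries, each a pool of 3 hearts. In the pair for hypertrophic cardiomyopathy (HCM), hearts of cMyBP-CΔC10mut mice, which carry a transgene with the 25bp variant of MYBPC3, gave the library dC10mut and those of nontransgenic mice the library NTG, both with the strain label C57BL/6. In the pair for dilated cardiomyopathy (DCM), the mutant library, tt, is labelled cMyBP-C(t/t), and its partner, named control, holds hearts of control mice; both have the strain label FvB/N. MYBPC3 encodes cardiac myosin binding protein C, a protein of the thick filament; no drug treatment is given for any group, and the promoter of the transgene is not given in the sources used here. Each group is a single library, so differences within a pair could not be tested against replicate spread, and the intervals below cover counting error only.

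Library totals lay between 170543 and 187365 counts, so that 3 counts, used here as the floor for a count of 0, equal between 15.6 and 18.7 CPM (counts relative to the TMM-adjusted library total). Of 10 heart muscle markers, the 5 with a single transcript row (Myl2, Actc1, Tnni3, Mybpc3 and Ryr2) each held at least 129 counts in every library. Xist and its facing gene Tsix together held 155 counts in dC10mut and 173 in tt and 0 in NTG and control, so sex and genotype cannot be told apart in either pair. In pooled whole hearts, fewer cells of a type and less RNA per cell cannot be told apart either.

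The adult heart draws much of its energy from fatty acids. Lipoprotein lipase, the product of Lpl, is made largely by heart muscle cells and works at the capillary wall, where it splits the triglycerides of lipoproteins; CD36 and the transport protein encoded by Slc27a1 help the freed fatty acids across the membrane, the ligase encoded by Acsl1 couples them to coenzyme A, and the binding protein encoded by Fabp3 carries them through the cytosol. Fatty acids not burned at once are stored as triglyceride in droplets coated by perilipins, such as the products of Plin4 and Plin5, and are released by adipose triglyceride lipase (Pnpla2) and then hormone-sensitive lipase (Lipe).

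The noncoding gene 4732471J01Rik (RefSeq, GRCm38.p6, chr7:25376819-25566417, plus strand) overlaps Lipe (chr7:25379527-25398486, minus strand). All of its counts lay in a single transcript row, NR_073028, with 7 exons and 991 bases. Of these bases, 356 (35.9%), in 4 stretches, lie opposite coding exons of Lipe transcript NM_010719; counted against every annotated Lipe transcript, 413 bases face the gene. The 3 exons with the longest shared stretches are shown because a read from these bases can be placed with one gene or the other only if its strand is used. They are written 5′ to 3′ on the plus strand, from the GENCODE transcript, with the bases that face NM_010719 in capitals.
Exon 4, chr7:25383599-25383737: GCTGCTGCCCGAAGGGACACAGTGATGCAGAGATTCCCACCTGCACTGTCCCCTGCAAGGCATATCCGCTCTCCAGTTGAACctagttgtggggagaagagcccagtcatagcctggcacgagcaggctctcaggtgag
Exon 5, chr7:25384795-25384882: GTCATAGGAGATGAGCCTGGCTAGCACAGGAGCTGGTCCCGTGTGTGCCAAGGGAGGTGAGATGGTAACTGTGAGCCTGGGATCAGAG
Exon 6, chr7:25385052-25385300: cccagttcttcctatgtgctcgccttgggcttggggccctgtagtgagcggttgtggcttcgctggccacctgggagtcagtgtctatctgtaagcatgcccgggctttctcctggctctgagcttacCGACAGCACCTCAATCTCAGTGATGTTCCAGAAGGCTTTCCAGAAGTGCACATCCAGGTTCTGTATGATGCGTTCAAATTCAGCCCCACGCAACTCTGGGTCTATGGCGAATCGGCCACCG
The capitals, for that Lipe transcript alone, cover 82 of 139 bases in exon 4, all 88 in exon 5 and 121 of 249 in exon 6.

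**Figure D1:**
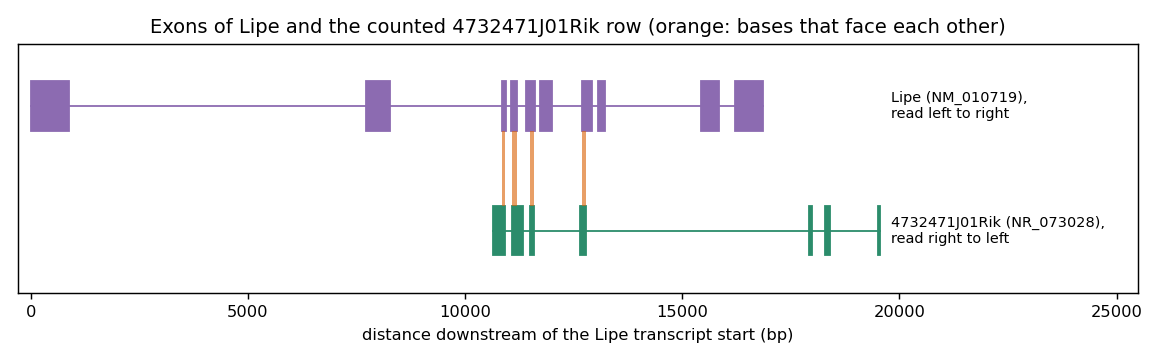
Exons (boxes) of Lipe (NM_010719) and of the counted transcript of 4732471J01Rik, by distance in base pairs downstream of the Lipe transcript start. The orange bands join the 4 stretches, 356 bases in all, in which its exons face those of Lipe transcript NM_010719.

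Lpl, on chromosome 8 (68880555 to 68906932), held the most counts of the 10 and ranked 16 among 9344 genes with a count by mean CPM. This ranks counts and not RNA levels, because genes with several transcript rows were often at or near 0. In the C57BL/6 pair it held 976 counts (NTG) and 1170 (dC10mut) and in the FvB/N pair 1107 (control) and 1331 (tt), which is 6085, 6248, 6086 and 6911 CPM. NTG and control stood level, dC10mut was close to them, and tt was the highest, with a counting interval (6545 to 7293 CPM) above that of control (5733 to 6455). The log2 ratio was 0.04 in the HCM pair (95% interval -0.09 to 0.16) and 0.18 in the DCM pair (0.07 to 0.30), a level 1.14-fold that of control. The ratio of control to NTG was 0.00 on the log2 scale (-0.13 to 0.13). Lpl has 1 transcript row, and no exon of another gene faces it in the annotation used. Its counts made up between 68.8% (NTG) and 78.1% (tt) of all counts of the 10 genes.

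Fabp3, the heart-type fatty acid binding protein gene on chromosome 4 (130308738 to 130315463), was read at 93 (NTG), 120 (dC10mut), 131 (control) and 104 counts (tt). Scaled, these were 580, 641, 720 and 540 CPM, with control the highest and tt the lowest. The counting intervals of all 4 libraries overlapped. In the HCM pair the log2 ratio was 0.14 (-0.26 to 0.55). In the DCM pair it was -0.41 (-0.80 to -0.03), or 1.33-fold lower in tt, with an interval that ends close to equality. Of the 823 bases of Fabp3, 80 face exons of Gm10570 and 81 those of Zcchc17 on the other strand.

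Plin4, a droplet coat gene on chromosome 17 (56100587 to 56109948) next to Plin5, was counted thinly, with 19 (NTG), 16 (dC10mut), 22 (control) and 25 (tt). These equal 118, 85.4, 121 and 130 CPM, and dC10mut was the lowest. The log2 ratio was -0.46 in the HCM pair (-1.53 to 0.57) and 0.10 in the DCM pair (-0.78 to 1.00). A fall of 2-fold lies within the HCM interval, and the DCM interval reaches almost to a 2-fold rise, so smaller differences in Plin4 were not detectable at this depth.

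4732471J01Rik held 330 counts in NTG, and 222, 201 and 243 in dC10mut, control and tt. Scaled, NTG stood apart at 2057 CPM (1841 to 2292), while dC10mut, control and tt lay between 1105 and 1262 CPM with overlapping intervals. In the HCM pair the row was 1.73-fold lower in dC10mut (log2 ratio -0.79, -1.05 to -0.55), short of 2-fold. In the DCM pair the log2 ratio was 0.19 (-0.08 to 0.47). Control was 1.86-fold lower than NTG (log2 ratio -0.90, -1.16 to -0.64), a difference between the control libraries as large as that within the HCM pair, and both of these ratios use the same NTG library. The libraries were made strand-specific, but whether and how the counting used strand is not given in the sources used here. On the X chromosome, where Xist and Tsix face each other, the Tsix row held 147 counts in dC10mut and 159 in tt and the Xist rows 8 and 14, although Xist is the abundant RNA of adult female tissue. Xist has 2 transcript rows and Tsix 1, and genes with several rows often held few counts. The parts of row number and strand in this contrast were not tested. With the use of strand not given, whether the counts of 4732471J01Rik come from its own RNA or from Lipe cannot be told apart.

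**Figure D2:**
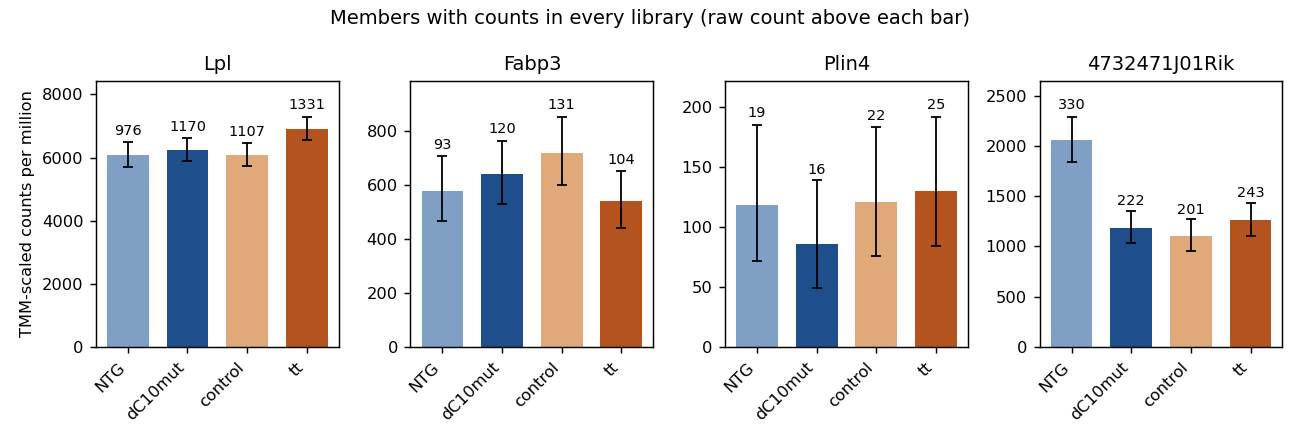
TMM-scaled CPM of the 4 genes counted in every library, 1 bar per library, with 95% exact Poisson intervals and the raw count above each bar. Lpl lies between 6085 and 6911 CPM and Fabp3 between 540 and 720 CPM. Plin4 rests on 16 to 25 counts, and 4732471J01Rik is highest in NTG at 2057 CPM.

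Per kilobase of transcript, Lpl held 1479, 1518, 1479 and 1680 CPM in NTG, dC10mut, control and tt. 4732471J01Rik held 2076, 1196, 1115 and 1273 CPM per kilobase in the same order. The order of these counts per kilobase thus turned. In NTG, 4732471J01Rik stood above Lpl (intervals 1858 to 2313 and 1387 to 1575). It stood below Lpl in the other 3 libraries, again without overlap of the counting intervals. Such an order, here and below, is one of counts and not of RNA levels, because the use of strand in counting is not given. Fabp3 followed with 656 to 875 CPM per kilobase and Plin4 with 14.8 to 22.6. Fabp3 lay below 4732471J01Rik beyond the counting intervals in NTG, dC10mut and tt, while in control the intervals overlapped (732 to 1038 and 966 to 1280). Plin4 lay below Fabp3 beyond the intervals in every library.

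Cd36, Slc27a1, Acsl1, Plin5, Pnpla2 and Lipe, among them the main uptake protein, the main ligase and both droplet lipases, were at or near 0. Cd36 (chromosome 5) held 1 count, in tt, and the other 5 held 0 in every library. These zeros give no level of the RNA. All 6 have several transcript rows, between 2 (Acsl1, Plin5, Lipe) and 5 (Cd36), whereas Lpl, Fabp3 and Plin4 have 1 each. Among all genes, 9.48% of the 17144 with 1 row reached a mean of 10 counts per library, against 2.18% of the 7900 with several rows. The same held for heart muscle markers that the tissue is known to express strongly: Tnnt2 and Myl3, which encode troponin T and a myosin light chain, held 0 counts over the 4 libraries, Myh6, the main myosin heavy chain gene of the adult mouse heart, held 1, Mb, which encodes myoglobin, 3 and Pln, which encodes phospholamban, 6, and each has several rows.

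**Figure D3:**
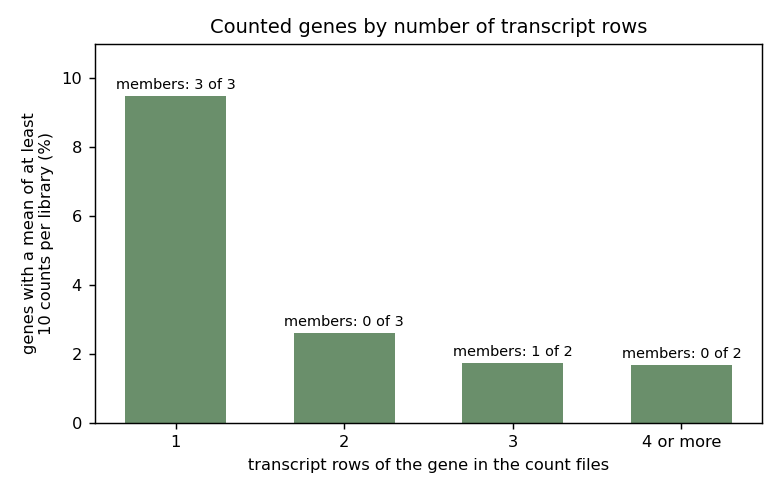
Share of genes, in percent, that reached a mean of 10 counts per library, by the number of transcript rows of the gene. The share falls from 9.48% with 1 row to 1.68% with 4 or more, and the label on each bar gives how many of the 10 genes described reached it.

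The transcript rows of these genes overlap one another to a large extent. Of the Cd36 rows, 3 have 0 bases that no other Cd36 row holds, and the row with the single count has 37. The Plin5 rows have 101 such bases each out of 1986, the Lipe rows 45 of 2661 and 997 of 3613, the Pnpla2 rows 0, 82 and 657, and the Acsl1 rows 196 and 664 (for Slc27a1 not all rows could be placed). 4732471J01Rik is the only one of the 10 with several rows that reached a mean of 10 counts per library. Its counted row has 943 of its 991 bases outside the other rows of the gene, while 413 of the 991 face Lipe. How the counting treated reads that fit several rows is not given in the sources used here, and its part in the zeros was not tested.

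No gene of the 10 passed the size rule (an absolute log2 ratio of at least 1 with a counting interval that excludes equality) in the HCM pair, the DCM pair, between the control libraries or in the difference between the pairs. Among all genes with a mean of at least 10 counts, 11.7% passed it in the HCM pair, 10.7% in the DCM pair, 7.07% between the control libraries and 15.6% for the difference between the pairs. With 4 genes counted, 0 calls is near these shares. An interval that excluded equality at any size was found for 4732471J01Rik in the HCM pair (26% of all such genes), for Lpl and Fabp3 in the DCM pair (27.5%) and for 4732471J01Rik between the control libraries (19.2%). With a size rule of 1.5-fold in place of 2-fold, 4732471J01Rik passed in the HCM pair (19% of all such genes did), between the control libraries (13.5%) and in the difference between pairs (21.5%), and 0 of the 4 passed in the DCM pair (20.9%).

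**Figure D4:**
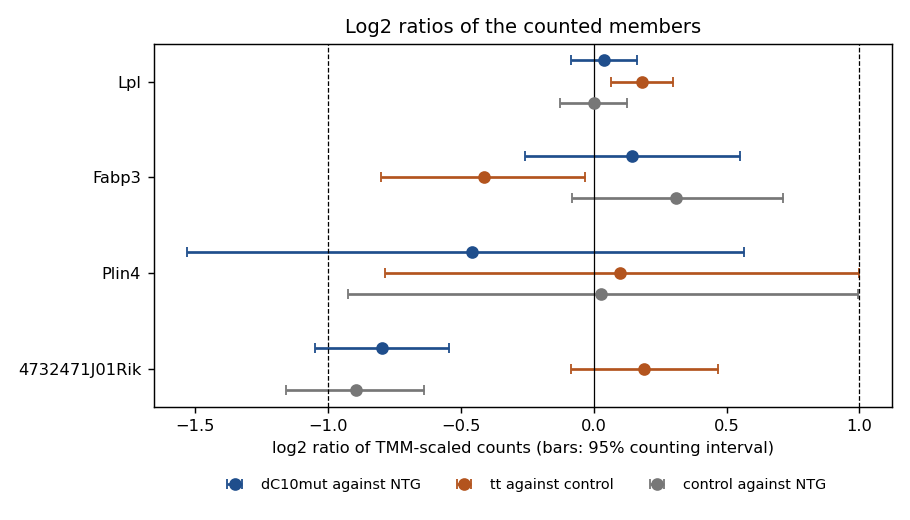
Log2 ratios of the 4 counted genes with 95% counting intervals, in the HCM pair, in the DCM pair and between the control libraries (control over NTG). All points lie between the dashed lines at 2-fold, and the ratios of 4732471J01Rik that use NTG, at -0.79 and -0.90, lie farthest from 0.

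Set against each other, the pairs differed most in 4732471J01Rik, whose log2 ratio in the DCM pair exceeded that in the HCM pair by 0.98 (0.62 to 1.35). The difference was -0.56 for Fabp3 (-1.09 to -0.02), 0.15 for Lpl (-0.02 to 0.31) and 0.56 for Plin4 (-0.69 to 1.81). An interval of this difference that excludes 0 was found in 24.7% of all genes with a mean of at least 10 counts. A difference common to both models was tested with the quasi-likelihood test of edgeR, in a model with pair and genotype that leaves 1 residual degree of freedom. Of the 4 genes that could be tested, 0 were called, 0 had an unadjusted p under 0.05, and DESeq2 also called 0; over all 7360 genes edgeR called 13 (0.177%, with 321 at an unadjusted p under 0.05) and DESeq2 0 (43 at an unadjusted p under 0.05). The Benjamini-Hochberg adjusted p of edgeR was 0.998 for each of the 4, with fitted log2 differences of 0.09 for Lpl, -0.16 for Fabp3, -0.18 for Plin4 and -0.32 for 4732471J01Rik.

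Genes of the same pathway outside the 10 were described from lists of other uptake and activation genes, other droplet and lipolysis genes, triglyceride synthesis, mitochondrial entry, and the PPAR and ERR regulators (nuclear receptors known to drive fatty acid genes in heart, with their coactivators, corepressors and related factors). Among other uptake and activation genes, 17 of 36 held a count and 4 reached a mean of 10. In the HCM pair 1 of 15 measured passed the rule upward in dC10mut and 0 downward, against 1.81% and 2.53% of all genes with a count. This was Cav3, the caveolin of muscle, with 4, 16, 6 and 4 counts in NTG, dC10mut, control and tt (3.18-fold in the HCM pair, log2 ratio 1.67, 0.14 to 3.82). In the DCM pair 0 of 16 were higher in tt and 1 lower, against 2.7% and 1.58% of all genes. The lower gene was Fabp4, a fatty acid binding protein made by capillary endothelial cells and adipocytes, with 154, 184, 203 and 102 counts in the order NTG, dC10mut, control and tt. It was 2.10-fold lower in tt than in control (log2 ratio -1.07, -1.43 to -0.73), and tt alone lay below the other 3 libraries. The most counted others were Acss1, an acetyl-CoA synthetase (29, 35, 30 and 54 counts), Got2, a transaminase also known as a membrane fatty acid binding protein (27, 28, 24 and 23), and the caveolar coat gene Cavin1 (32, 30, 31 and 28). The 4 genes with a mean of at least 10 had median log2 ratios of -0.07 (HCM) and -0.18 (DCM).

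Fabp4 and Fabp3 were both lowest in tt, and the difference between the pairs was -1.10 for Fabp4 (-1.57 to -0.64) on the log2 scale; 5.8% of all genes with a count passed the rule in that difference. The capillary endothelial list, of which Fabp4 is a member, summed to 1403, 1388, 1578 and 758 CPM in the same order. Most of these counts were those of Fabp4 itself (154 of 225, 184 of 260, 203 of 287 and 102 of 146). Of the 10 genes of the list, 5 held a count. In the DCM pair 2 of these 5 passed the rule downward in tt and 0 upward, against 1.58% and 2.7% of all genes with a count. The 2 were Fabp4 and Kdr. Kdr, which encodes a VEGF receptor, held 23, 18, 27 and 11 counts. Cdh5, the cadherin of endothelial junctions, held 39, 24, 25 and 15. The water channel gene Aqp1 held 8, 29, 30 and 17. It rose past the rule in dC10mut, as 1 of 5 measured, against 1.81% of all genes with a count. Aqp1 passed the rule in control against NTG as well (log2 ratio 1.67, beside 1.58 in the HCM pair), and NTG was its low library. In that comparison it was 1 of 5 measured that passed upward, against 1.4% of all genes with a count. The 5 at 0, among them Pecam1 and Tek, all have several rows. The part of endothelial RNA in the Fabp4 value was not tested. Of 10 adipocyte markers only Car3 held a count, 2 in dC10mut and 1 in control; Adipoq, Cfd, Retn, Lep, Plin1, Cidec, Adrb3, Acvr1c and Ucp1 were at 0, and 5 of these 9 have several rows. Macrophage markers (6 of 8 with a count, Adgre1 and Cd14 at 0) summed to 112, 256, 253 and 93.5 CPM. Of these, Lyz2, the lysozyme gene, held 6, 28, 28 and 5 counts. It passed the rule upward in dC10mut and downward in tt, each time as 1 of 6 measured (1.81% and 1.58% of all genes with a count). Lyz2 also passed it upward between the control libraries (1.4% of all genes). It stood there at 3.89-fold, control over NTG, beside 3.78-fold in the HCM pair, so that NTG and tt were low and the other 2 libraries level. The next most counted markers were Csf1r (3, 6, 5 and 3 counts) and C1qb (1, 6, 5 and 5). Their intervals span equality in both pairs, and C1qb did not fall in tt as Lyz2 did. The part of these cells in the values of Plin3 and Fabp4, which are also expressed there, was not tested. Fibroblast markers (7 of 8 with a count, Postn at 0) summed to 324, 219, 390 and 218 CPM. In the DCM pair 1 of 7 measured passed the rule downward in tt, against 1.58% of all genes with a count. This was Col1a2, a collagen gene, with 7, 2, 11 and 2 counts. The most counted, Col3a1, held 23, 18, 34 and 18 and stayed short of 2-fold in the DCM pair (log2 ratio -0.98, -1.91 to -0.14). Lum held 11, 13, 12 and 10, with intervals that span equality in both pairs, and Gsn, with 2, 1, 1 and 3, was highest in tt.

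Of the other droplet and lipolysis genes, 14 of 26 in the files held a count and 2 reached a mean of 10. All 11 with a single row held a count, and the 12 at 0 all have several rows. In the HCM pair 2 of 12 passed the rule upward in dC10mut and 0 downward (1.81% and 2.53% of all genes with a count). Plin3, the perilipin found on small droplets in most tissues, held 7, 26, 18 and 19 counts (3.05-fold in the HCM pair, log2 ratio 1.61, 0.43 to 3.12). NTG was the low library for Plin3, since control and tt lay near each other and above it. The difference between the pairs was -1.61 for Plin3 (-3.10 to -0.12). In that difference Plin3 passed the rule, as 1 of 10 measured genes of the list, against 5.8% of all genes with a count. Fitm2, a protein of droplet formation, held 5, 19, 5 and 10 counts (log2 ratio 1.62, 0.23 to 3.48) and faces 2310001K24Rik on the other strand. In the DCM pair 0 of 12 passed in either direction (2.7% upward and 1.58% downward over all genes). The single-row perilipin gene Plin2 held 7, 7, 7 and 4 counts, and G0s2, which inhibits adipose triglyceride lipase, 4, 7, 5 and 2. Hsd17b11, a droplet-bound dehydrogenase and the most counted gene of the list, held 36, 60, 44 and 43 counts, with intervals that span equality in both pairs.

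In triglyceride synthesis, 20 of 26 genes held a count. In the HCM pair 0 of 19 passed (1.81% upward and 2.53% downward over all genes), and in the DCM pair 1 of 17 passed upward in tt and 1 downward (2.7% and 1.58%). The higher gene was Acacb, the acetyl-CoA carboxylase whose product malonyl-CoA restrains entry of fatty acids into mitochondria, with 23, 29, 17 and 43 counts (2.35-fold in the DCM pair, log2 ratio 1.23, 0.42 to 2.16). The lower gene was Agpat2, an acyltransferase of the pathway, with 8, 5, 16 and 5 counts (log2 ratio -1.66, -3.56 to -0.25); it faces the endothelial gene Egfl7 on the other strand. The difference between the pairs was 1.12 for Acacb (0.005 to 2.24), with an interval that barely excludes 0. In that difference Acacb passed the rule, as 1 of 16 measured genes of the list, against 5.8% of all genes with a count. Dgat2, which adds the last acyl chain, held 14, 28, 25 and 22 counts, and Gpd1, which makes glycerol 3-phosphate, 23, 36, 30 and 48, with intervals that span equality in both pairs. All 4 genes of this list with a mean of at least 10 had a positive log2 ratio in the HCM pair (median 0.43) and 3 of 4 in the DCM pair (median 0.67). Over all such genes 47.6% and 47.0% were positive, with medians of -0.04 and -0.04. The HCM intervals of all 4 span equality, as do the DCM intervals of all but Acacb.

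Of the mitochondrial entry genes, 12 of 15 held a count and 0 passed the rule in either pair; the 4 with a mean of at least 10 had median log2 ratios of 0.54 (HCM) and -0.09 (DCM). Acot13, a mitochondrial thioesterase that frees fatty acids from coenzyme A, was the most counted with 89, 143, 166 and 99 counts. On the log2 scale its ratio stood at 0.46 in the HCM pair (0.07 to 0.86) and -0.82 in the DCM pair (-1.20 to -0.46). The difference between the pairs was -1.28 (-1.81 to -0.76). In that difference Acot13 passed the rule, as 1 of 9 measured genes of the list, against 5.8% of all genes with a count. Like Fabp3, Acot13 was highest in control and low in NTG and tt. Crat, the carnitine acetyltransferase, held 49, 88, 56 and 76 counts, and Slc25a20, the carnitine carrier of the inner membrane, 10, 25, 12 and 20, with an HCM log2 ratio of 1.06 whose interval just spans equality (-0.01 to 2.32). Cpt2 held 21, 20, 18 and 13. Of the regulators, 10 of 19 held a count, 16 of 19 have several rows, and 0 passed in either pair. Perm1, a muscle coactivator of oxidative genes, held 46, 55, 60 and 55 counts, and Esrra, an estrogen-related receptor that faces Trmt112, 12, 27, 24 and 20. Ppard and Klf15 held 15 counts each over the 4 libraries.

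**Figure D5:**
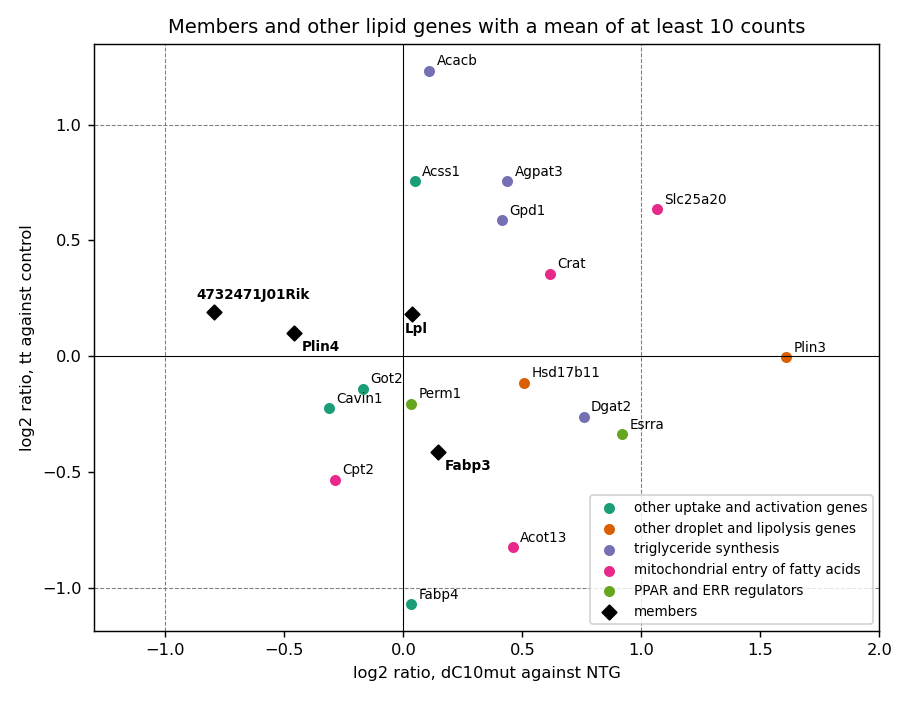
Log2 ratios of the 4 counted genes (diamonds) and of the other lipid genes with a mean of at least 10 counts (circles), in the HCM pair (horizontal) and the DCM pair (vertical), with dashed lines at 2-fold. Plin3 lies past 2-fold on the HCM axis at 1.61, and Acacb (1.23) and Fabp4 (-1.07) on the DCM axis; Slc25a20 lies at 1.06 on the HCM axis with an interval that spans equality.

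Genes whose scaled profile over the 4 libraries lay nearest to each counted gene were sought among 901 others with at least 100 counts. Nearest to Lpl were Kif1c and Rpl32, which departed from it by at most 0.03 and 0.05 on the log2 scale in any library. Nearest to Fabp3 were Gfm2 (at most 0.04) and Actb (0.05). Nearest to 4732471J01Rik were Gm15612 (0.05), with 195, 141, 123 and 148 counts, and Fpgs (0.11). Within 0.2 of the profile lay 61 genes for Lpl, 52 for Fabp3 and 16 for 4732471J01Rik, so flat profiles such as that of Lpl are shared by many genes.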

How the data were processed

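Strand-specific poly(A) RNA libraries were made from total RNA of pooled hearts, per the labels' protocols. STAR and HTSeq were used with the build mm10, per the submitters' processing notes; tool versions, the counting mode and any strand option are not given in the sources used here. Per the labels and from the whole-number values, the authors deposited raw read counts for each RefSeq transcript (41449 rows).

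Rows were summed per RefSeq symbol (41252 matched; the 197 others were kept as their own features). Exons came from GENCODE release M21 (GRCm38). Counts were scaled with TMM factors (edgeR 4.0.16, R 4.3.3). Log2 ratios were computed after adding 0.5 counts in proportion to library size. Their 95% intervals are Clopper-Pearson (exact binomial, conditional on the sum of both counts), and that of the difference between pairs is a normal approximation. A gene passed the size rule at an absolute log2 ratio of at least 1 with an interval excluding equality and 1 CPM in a library compared. The common difference was tested on genes reaching 1 CPM in 2 or more libraries, at a Benjamini-Hochberg adjusted p under 0.05, with DESeq2 1.42.0 as an alternative. Both procedures were tested on simulated data. PCR copies are not independent molecules, so intervals cover counting error only.

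All 10 members were named. From each pathway list, genes past the rule in a pair or otherwise up to 4 with the most counts were taken. From each marker list those past the rule and up to 2 with the most counts were taken. For each member with at least 100 counts the 2 genes with the nearest profile were added. A few others named (such as Plin2, G0s2 and Gsn) and markers at 0 were chosen after their values were seen. The members and lists were chosen with earlier results of these data known. Skeletal muscle markers summed to 2139, 2307, 1699 and 1506 CPM in NTG, dC10mut, control and tt (nearly all Ckm, which heart also expresses), and cardiomyocyte markers to 28493, 34795, 27467 and 25781.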

Additional observations from a re-analysis of the deposited data

Results flagged for a closer look

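Fabp3 and 4732471J01Rik had log2 ratios of opposite sign in the HCM and DCM pairs, with a counting interval of the difference that excludes 0. Such an interval was found in 24.7% of all genes with a mean of at least 10 counts. The interval spanned equality for Fabp3 in the HCM pair (log2 ratio 0.14, -0.26 to 0.55). For 4732471J01Rik it did so in the DCM pair (0.19, -0.08 to 0.47). The signs of these ratios were thus not settled beyond counting error. For Fabp3 the DCM ratio minus the HCM ratio was -0.56 (-1.09 to -0.02), from 93 and 120 counts in the HCM pair and 131 and 104 in the DCM pair. For 4732471J01Rik it was 0.98 (0.62 to 1.35), from 330 and 222 counts and 201 and 243. With 1 library per group neither difference was tested over samples, and the second rests on the NTG library, which stood at 2057 CPM against 1105 to 1262 in the other 3.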

How the results depend on the processing

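Each comparison was recomputed with 7 alternatives: library totals, DESeq2 size factors or scaling from genes without an opposite-strand exon, a prior count of 2, a minimum of 10 counts, the single row with the most counts, and a 1.5-fold rule. At 1.5-fold the number of the 10 genes past the rule rose from 0 to 1 in the HCM pair, between the control libraries and in the difference between pairs, each time 4732471J01Rik, and stayed at 0 in the DCM pair. Scaling from genes without an opposite-strand exon also gave 1 for the difference between pairs (4732471J01Rik, 1.08). The log2 ratio changed sign in 3 of 118 recomputed values: Lpl in the HCM pair (lowest -0.08) and between the controls (-0.10), and Plin4 between the controls (-0.06), all near 0. All 3 came with scaling from genes without an opposite-strand exon. The minimum of 10 counts, the single row and the 1.5-fold rule could not change a log2 ratio of these genes. Many of the 118 values therefore repeat the main value, and their number is no measure of stability. Scaling moved the median log2 ratio of all genes with a mean of at least 10 counts by at most 0.13 (library totals, controls) and by -0.11 in the HCM pair (genes without an opposite-strand exon). Over all genes of the HCM pair, 145 were higher and 203 lower with TMM, 170 and 166 with library totals, and 108 and 249 with genes without an opposite-strand exon; between the control libraries 114 and 138, 155 and 84, and 78 and 160. Of the differences given for other lipid genes, Acacb between the pairs (1.12 by TMM) passed the rule under 2 of 3 other scalings, and those of Cav3, Plin3, Fitm2, Fabp4, Agpat2 and Acot13 under all 3. In the common test, 0 of the 4 genes tested were called by DESeq2, with library totals or with no replicate block. Without a filter beyond a count in any library, 0 of 5 tested were called. Over all genes the common test called 13 with the pair as a block, 11 without the filter, 9 with library totals and 1 with no replicate block; the labels carry no replicate numbers that would pair single samples otherwise. Leaving out a replicate was not possible with 1 library per group. Among the 4 genes counted in every library, depth limits Plin4 most, at 82 counts over the 4 libraries.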
